A study of Mus musculus with 24 samples.

Results

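Kidney RNA collected 28d after myocardial infarction (MI) was compared directly with kidney RNA collected 5d after it, gene by gene. All kidneys labelled MI whose column could be assigned to a sample were included, 6 at 28d and 8 at 5d, which is 14 of the 24 kidneys in the labels. One further kidney at each time was left out, because both columns carry the same name. The mice were wild-type C57BL/6J males of 8 to 11 weeks, and the infarct was made by tying off the left anterior descending (LAD) artery of the heart for good, without reperfusion. Sham kidneys, 8 in number, came from mice opened without ligation and collected at 5d. They took part in the estimate of the spread, and their values are given for orientation only. The kidneys at 28d had no sham group of their own, so infarct age, recovery from the operation and growing older cannot be told apart. Each library holds a whole-kidney extract.

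Reduced cardiac output reaches the kidney through lower perfusion, sympathetic drive and circulating hormones. Juxtaglomerular cells answer a fall in renal perfusion with renin, the protease that starts the angiotensin cascade. Kidney cells also carry immediate early genes, whose transcription factors and RNA-binding proteins are switched on within minutes of a stimulus without new protein synthesis, and slower stress programmes such as the heat shock response and the integrated stress response, in which the translation of Atf4 is raised when general translation is held back.

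Libraries were made by MACE, which reads 3′ ends of polyadenylated RNA and counts molecules by unique identifiers. Total counts ran from 2351162 to 3382058 at 5d and from 2522894 to 3269306 at 28d, and the mean log2 total differed by −0.10 (exact permutation test over 3003 splits, two-sided p = 0.308). Levels are given as CPM (counts scaled to each library's total) after TMM scaling, and changes as log2 fold changes, 28d minus 5d, with their standard error. A gene was called at an adjusted p under 0.05 in edgeR's quasi-likelihood test. Summed CPM of 9 adrenal cortex genes was 99.5 in 5d replicate 5 and between 6.72 and 9.89 in the other kidneys at 5d. It was between 5.66 and 10.4 in the kidneys at 28d. Sham replicates 2 and 6, which took part in the estimate of the spread, had 1043 and 824 CPM.

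Between 5d and 28d post-MI, 53 of 12780 tested genes were called (0.415%). Of these, 43 were higher at 28d (0.336% of the tested genes) and 10 were lower (0.0782%). The higher genes were led by immediate early genes, which made up 13 of the 43, and by genes of protein quality control, immunoglobulins and a histone. The lower genes comprised the 5 measured haemoglobin genes, the red cell gene Tent5c, renin (Ren1), the angiotensin-cleaving aminopeptidase Enpep, the glutathione transferase Gsto1 and the transcript Gm44120. Log2 fold changes of the higher genes lay between 0.20 and 2.25, with 20 above 1 and 16 below 0.5. Those of the lower genes lay between −1.88 and −0.32, with 7 below −1. Across all tested genes the median was −0.0046.

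**Figure D1:**
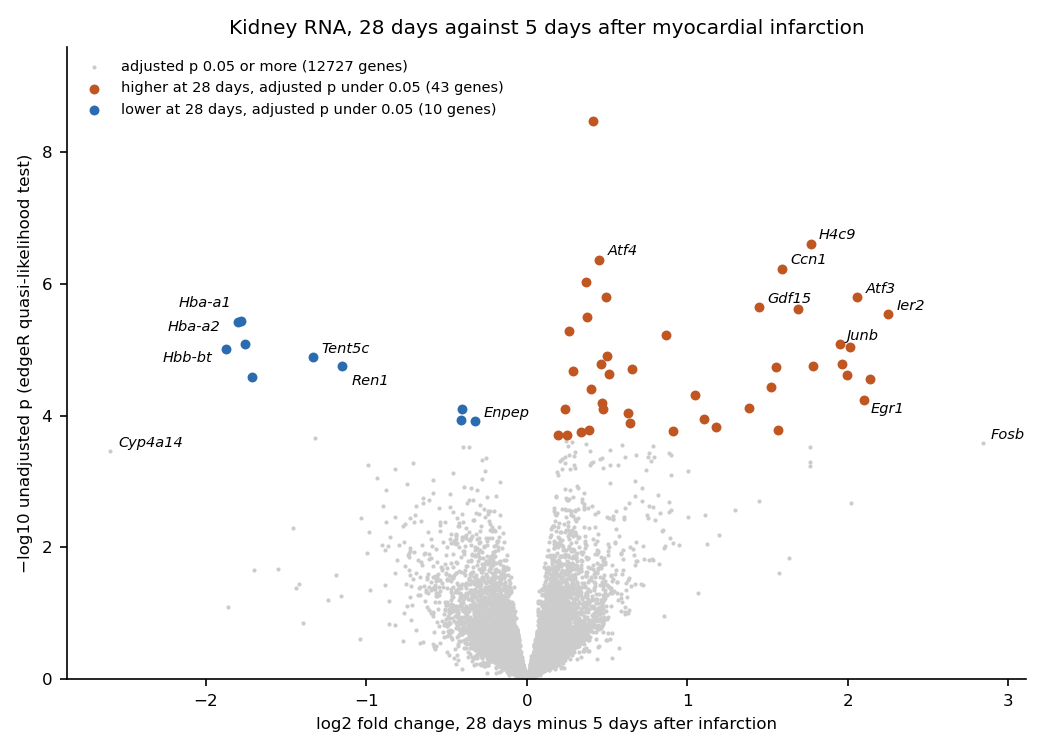
Each point is 1 of the 12780 tested genes, with the log2 fold change (28d minus 5d post-MI) on the x axis and −log10 of the unadjusted p on the y axis. The 43 orange genes were called higher at 28d and the 10 blue genes lower. The haemoglobin genes lie near −1.8 with Ren1 and Tent5c closer to 0, and the immediate early genes lie on the far right.

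Some genes separated the groups entirely. Every kidney at 28d was above every kidney at 5d in 32 tested genes (0.25%) and below in 12 (0.0939%). Among the called genes, 24 of the 43 higher and 4 of the 10 lower genes separated in this way. The mean of the sham kidneys lay between the means at 5d and 28d in 42 of the 43 higher genes, closer to 28d in 21 of these and closer to 5d in the other 21. For all 10 lower genes the sham mean also lay between both times, closer to 28d in 8 of them.

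Of 26 tested immediate early genes, 13 were called and all 13 rose. The median log2 fold change of the list was 1.45, against −0.0046 over all tested genes, and 10 of its members separated the groups entirely. The summed level of the list was 762, 1202 and 1458 CPM at 5d and 2131, 2714 and 4155 CPM at 28d. Sham kidneys lay between 1381 and 2719 CPM with a median of 2293 CPM. At 5d only replicates 1 and 7, with 1458 and 1432 CPM, lay within the sham range, and all other kidneys at 5d lay below it. Beyond the genes selected by rule, the remaining called members are also named here, which was decided after their values had been seen.

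**Figure D2:**
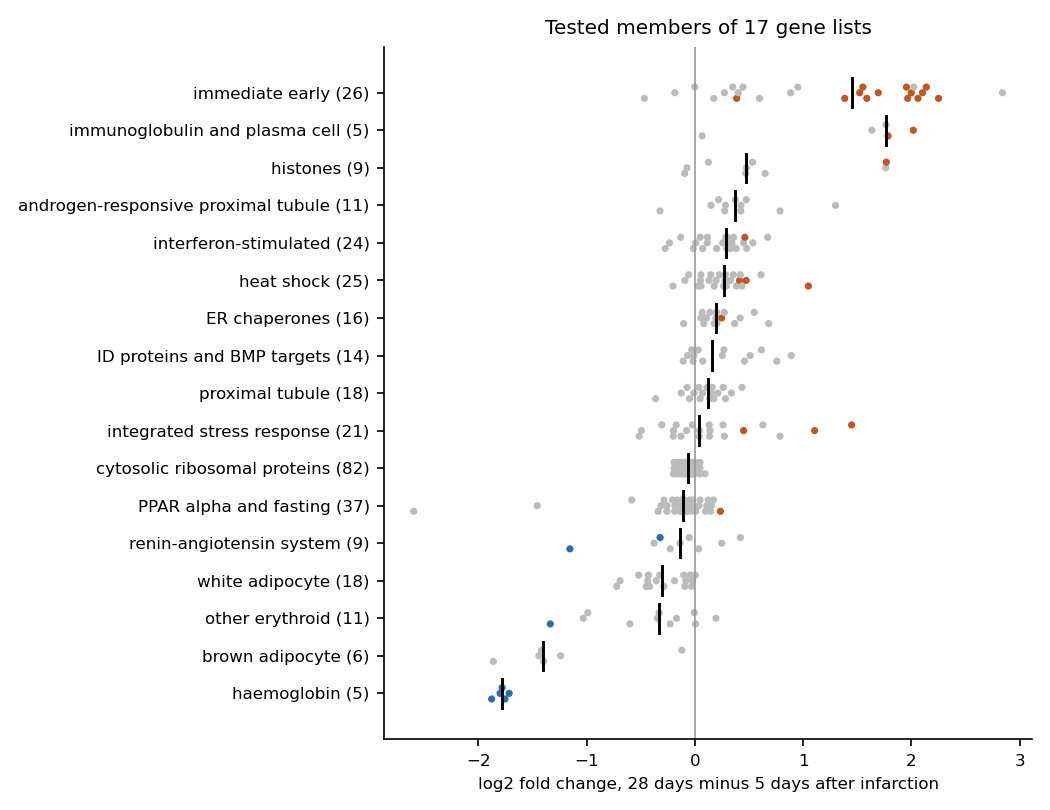
Each point is a tested gene of 1 of 17 lists, placed at its log2 fold change (28d minus 5d post-MI), with the number tested in brackets and the list median as a black bar. Called genes are orange (higher at 28d) or blue (lower), and grey genes were not called. The immediate early and immunoglobulin lists have medians of 1.45 and 1.77, and the haemoglobin list has one of −1.78.

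Several of the AP-1 subunits, which dimerize through leucine zippers to bind DNA, were among the called genes. Fos had 6.40, 34.8 and 78.5 CPM at 5d and 96.8, 142 and 246 CPM at 28d, with a log2 fold change of 2.14 ± 0.39 (adjusted p = 0.0109). The ranges did not overlap, and the lowest kidneys at 5d were replicates 2 and 8, both under 8 CPM. Junb had 17.7, 52.6 and 104 CPM at 5d and 105, 178 and 347 CPM at 28d, a log2 fold change of 1.95 ± 0.32. Jun rose by 1.69 ± 0.26, from 20.4, 40.8 and 61.7 CPM to 85.4, 129 and 191 CPM. Both genes separated the groups, Junb by a narrow margin. Jund, a subunit with higher basal expression, rose by 0.39 ± 0.09 with overlapping groups, and stayed called in 4 of the 14 fits that left out a kidney. Fosb had the largest fold change of the list, 2.84 ± 0.64, but was not called by edgeR (adjusted p = 0.0588), whereas DESeq2 and limma voom called it, and its reads were few, 0 to 16 per kidney at 5d and 6 to 48 at 28d. Atf3, which pairs with Jun proteins and is also induced by Atf4, rose by 2.06 ± 0.36 from 0, 1.402 and 3.14 CPM to 3.94, 6.54 and 10.5 CPM, on 0 to 9 and 11 to 26 reads per kidney.

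Among zinc finger and nuclear receptor genes of the list Egr1 and Nr4a1 were called, while the zinc finger factors Klf2, Klf4 and Klf6 had 0.27, 0.17 and −0.19 and were not. Egr1, a zinc finger transcription factor of the early growth response, had 7.92, 92.0 and 208 CPM at 5d and 271, 349 and 677 CPM at 28d (log2 fold change 2.10 ± 0.41, adjusted p = 0.0206). Nr4a1, an orphan nuclear receptor, rose by 1.998 ± 0.36, from 5.49, 43.8 and 61.1 CPM to 96.0, 146 and 217 CPM. The ranges of both genes were apart, and 28d replicates 1 and 4 had the 2 highest levels of both. Nr4a2, its close relative, had a log2 fold change of 2.02 ± 0.57 that was called by DESeq2 and by edgeR on only the kidneys at 5d and 28d, but not by edgeR over all 22 kidneys.

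Further members of the list were called. Ier2, a short-lived nuclear protein, had the largest log2 fold change of all called genes, 2.25 ± 0.35, with 11.3, 28.3 and 61.4 CPM at 5d and 78.1, 127 and 256 CPM at 28d. Dusp1, the phosphatase that inactivates MAP kinases, rose by 1.55 ± 0.27, from 54.6, 129 and 169 CPM to 222, 346 and 477 CPM. Neither gene had overlapping groups. Zfp36, which directs AU-rich mRNAs to decay, rose by 1.52 ± 0.29, and its relative Zfp36l1, which is not in the list, by 0.50 ± 0.09. Btg2, an antiproliferative factor that recruits the deadenylase complex, rose by 1.97 ± 0.35. Tob1 of the same family, also not in the list, rose by 0.65 ± 0.12.

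Secreted products were included as well. Ccn1, a matrix-bound ligand of integrins, had 42.7, 87.4 and 124 CPM at 5d and 173, 259 and 338 CPM at 28d, and its log2 fold change of 1.59 ± 0.22 passed the test (adjusted p = 0.00186). Its groups were apart. Cxcl1, a neutrophil-attracting chemokine, rose by 1.38 ± 0.30 on 1 to 23 reads per kidney at 5d and 19 to 39 at 28d. Of the 26 tested members of the list, 23 had a positive log2 fold change and 3 a negative one. Gadd45b had 0.95, Plk2 0.89 and Ier3 0.60, while Myc had −0.47 and Cebpd 0.00. None of these was called by edgeR, and DESeq2 called Plk2. Outside the list, Arc, an immediate early gene best known from neurons, rose by 1.57 ± 0.35 (called in 5 of the 14 fits that left out a kidney), Ier5l by 0.87 ± 0.16 and the cell cycle regulator Sertad1 by 0.51 ± 0.11.

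**Figure D3:**
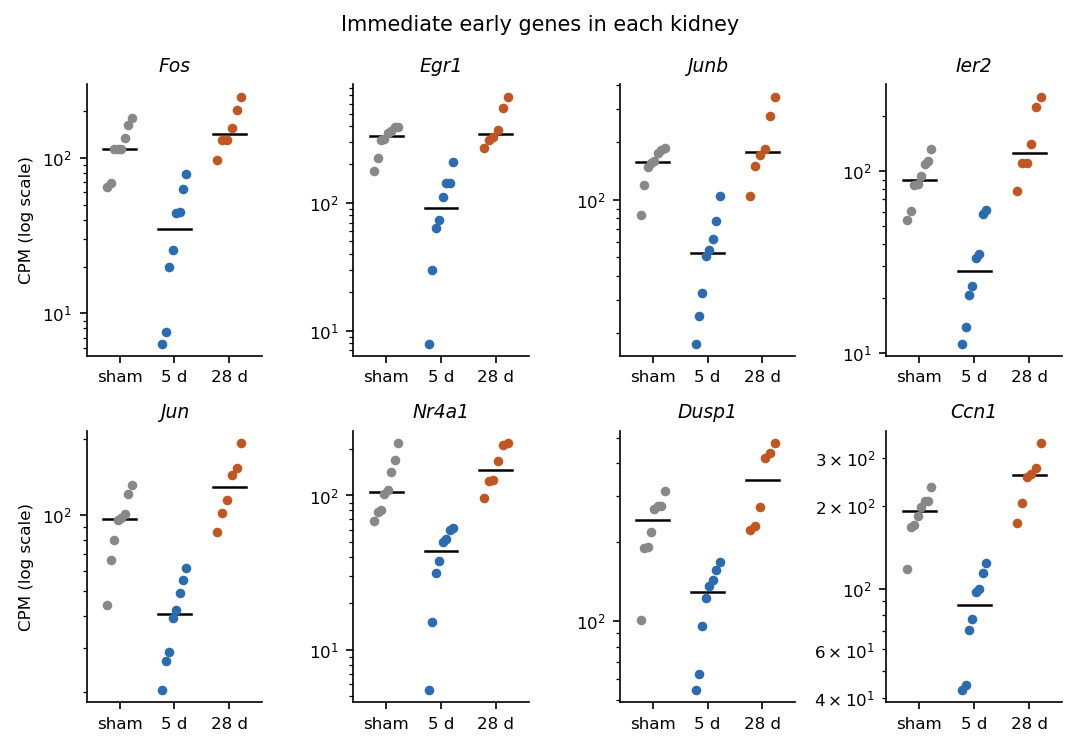
Levels in CPM (log scale) of 8 immediate early genes in each sham kidney (grey), each kidney at 5d (blue) and each kidney at 28d post-MI (orange), sorted within groups, with the group median as a black line. In all 8 genes every orange point lies above every blue point.

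When the 8 sham kidneys were left out of the fit, 4 of the 13 immediate early calls remained and the list's median log2 fold change was 1.45. With the level of red cell genes as a covariate no member was called, at a median of 1.68. The labels gave no hour of collection, and its part in these levels was not tested.

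Promoter windows were read from RefSeq (GRCm38.p6), each covering 250 bases before and 50 bases after an annotated start. A window was found for 11 of the 13 called immediate early genes and for 31 of the 43 higher genes. They are shown because these genes moved together and because TGACG, the core of the cAMP response element to which factors of the CREB and ATF families bind, recurred in them. TGACG, searched on both strands after the windows had been looked at, was present in 8 of these 11 (72.7%), in 16 of the 31 (51.6%), in 35.3% of the 9080 tested genes with a window, and in 23.0% of all 27025 genes with a window. It was also present in 11 of the 19 tested heat shock genes with a window (57.9%), of which Dnajb1 was the only called gene. The full palindrome TGACGTCA, in which TGACG counts once on each strand, was found in Btg2 and Dusp1, 2 of the 11, and in 3.48% of the tested genes with a window. The windows of Fos, Nr4a1, Btg2, Dusp1 and Atf3 follow, with TGACG on either strand in capitals, and in Atf3 also the composite C/EBP-ATF element TGATGCAA, on the antisense strand.
Fos, chr12:85473640-85473939, plus strand: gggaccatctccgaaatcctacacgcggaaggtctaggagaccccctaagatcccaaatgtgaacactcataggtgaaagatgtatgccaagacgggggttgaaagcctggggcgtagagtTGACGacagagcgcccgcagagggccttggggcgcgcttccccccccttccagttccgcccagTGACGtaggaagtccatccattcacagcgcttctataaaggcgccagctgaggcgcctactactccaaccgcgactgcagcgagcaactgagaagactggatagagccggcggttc
Nr4a1, chr15:101266596-101266895, plus strand: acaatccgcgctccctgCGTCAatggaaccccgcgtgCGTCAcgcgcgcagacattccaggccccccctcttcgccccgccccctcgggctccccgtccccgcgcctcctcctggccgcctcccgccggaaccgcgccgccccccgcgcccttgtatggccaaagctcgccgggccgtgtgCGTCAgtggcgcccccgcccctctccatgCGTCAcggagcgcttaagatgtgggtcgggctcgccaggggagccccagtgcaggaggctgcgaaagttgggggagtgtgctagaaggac
Btg2, chr1:134079106-134079405, minus strand: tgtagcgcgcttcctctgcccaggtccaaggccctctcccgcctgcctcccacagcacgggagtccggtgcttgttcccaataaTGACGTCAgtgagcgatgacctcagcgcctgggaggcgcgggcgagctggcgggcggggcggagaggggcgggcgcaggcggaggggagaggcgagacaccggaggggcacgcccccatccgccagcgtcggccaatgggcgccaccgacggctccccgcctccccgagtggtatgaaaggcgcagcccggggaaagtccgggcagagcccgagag
Dusp1, chr17:26508423-26508722, minus strand: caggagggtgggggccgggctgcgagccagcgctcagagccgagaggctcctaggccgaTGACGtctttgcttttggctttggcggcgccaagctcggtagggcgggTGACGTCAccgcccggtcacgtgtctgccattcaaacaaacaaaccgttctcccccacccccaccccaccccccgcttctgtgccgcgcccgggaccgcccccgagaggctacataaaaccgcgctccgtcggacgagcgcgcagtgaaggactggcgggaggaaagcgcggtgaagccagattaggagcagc
Atf3, chr1:191183284-191183583, minus strand: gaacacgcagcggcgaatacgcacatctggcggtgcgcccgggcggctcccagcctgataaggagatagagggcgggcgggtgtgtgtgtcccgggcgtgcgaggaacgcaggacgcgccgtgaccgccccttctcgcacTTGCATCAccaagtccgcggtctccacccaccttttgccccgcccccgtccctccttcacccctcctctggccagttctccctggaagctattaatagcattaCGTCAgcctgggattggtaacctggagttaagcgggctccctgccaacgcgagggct

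Nr4a1 held TGACG 4 times, a number that 0.573% of the tested genes reached, and Dusp1 3 times. TGATGCAA was found in Atf3 alone among the 31 higher genes and in 0.705% of the tested genes. The serum response element motif (CArG box) was found in Zfp36 only among them, against 1.55% of the tested genes, the AP-1 motif TGANTCA in 3 of the 31 against 6.07%, and the inverted heat shock repeat TTCNNGAA in 4 of the 31 against 8.45%. These matches describe the letters in the windows and say nothing of sites beyond them or of binding.

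A few genes of 2 stress-response lists were called as well. Of 21 tested genes of the integrated stress response, 3 were called, all higher, and the median of the list was 0.04. The called members were the transcription factor Atf4, its partner and target Ddit3 (CHOP), and Gdf15, a secreted hormone of cell stress that acts on the hindbrain. Atf4 had 117, 126 and 151 CPM at 5d and 138, 177 and 204 CPM at 28d (log2 fold change 0.45 ± 0.07, adjusted p = 0.00181), and 4 of the 6 kidneys at 28d were above all kidneys at 5d.

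Gdf15 rose by 1.45 ± 0.22, from 9.03, 11.3 and 24.1 CPM to 26.6, 32.2 and 54.6 CPM, and the groups did not overlap. Ddit3 rose by 1.11 ± 0.26, from 2.12, 3.66 and 4.54 CPM to 4.65, 5.95 and 16.0 CPM. Its highest value belonged to 28d replicate 7 and its groups touched closely. The call of Ddit3 held in 8 of the 14 fits that left out a kidney, and limma voom did not call it. Amino acid and one-carbon genes that Atf4 is known to drive had log2 fold changes of both signs, −0.20 for Asns, −0.31 for Psat1, −0.17 for the transporter subunit Slc3a2, 0.14 for Phgdh, 0.26 for Shmt2 and 0.04 for Mthfd2, none called. Ppp1r15a, the phosphatase subunit that reverses the response, had 0.79 ± 0.20 (adjusted p = 0.0596) and was called by DESeq2.

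Among 25 tested heat shock genes 3 were called, all higher, among them the HSP40 co-chaperone Dnajb1 and the inducible HSP90 isoform Hsp90aa1. The median of the list was 0.27, and 22 of its 25 members had a positive sign. Dnajb1 had 29.8, 37.8 and 49.95 CPM at 5d and 58.8, 81.4 and 115 CPM at 28d, without overlap (log2 fold change 1.05 ± 0.20, adjusted p = 0.0178). Hsp90aa1 rose by 0.47 ± 0.10, and only 3 of the 6 kidneys at 28d exceeded all kidneys at 5d. Its call held in 7 of the 14 fits that left out a kidney. Hspa1a and Hspa1b, near-identical copies of inducible HSP70 whose reads cannot be split with certainty, had 0.61 ± 0.36 and 0.43 ± 0.36 and were not called.

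The kidneys at 28d were not uniform in this list. Replicates 2, 3 and 7 had summed heat shock levels of 6976, 7430 and 6861 CPM, whereas replicates 1, 4 and 6 had 5486, 5491 and 5684 CPM, within the range at 5d of 4290 to 6063 CPM. The order was not that of the immediate early genes, whose sum was highest in replicates 4 and 1 at 4155 and 3692 CPM. Among 16 chaperones of the endoplasmic reticulum, Calr (calreticulin, a calcium-binding lectin chaperone) was called with 0.25 ± 0.06, and 15 had a positive sign with a list median of 0.20. Calr stayed called in 5 of the 14 fits that left out a kidney, and limma voom did not call it. At unadjusted p under 0.05, 11 of the 25 heat shock genes and 7 of the 16 chaperones were higher and none lower, against 5.03% higher and 4.01% lower among all tested genes.

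**Figure D4:**
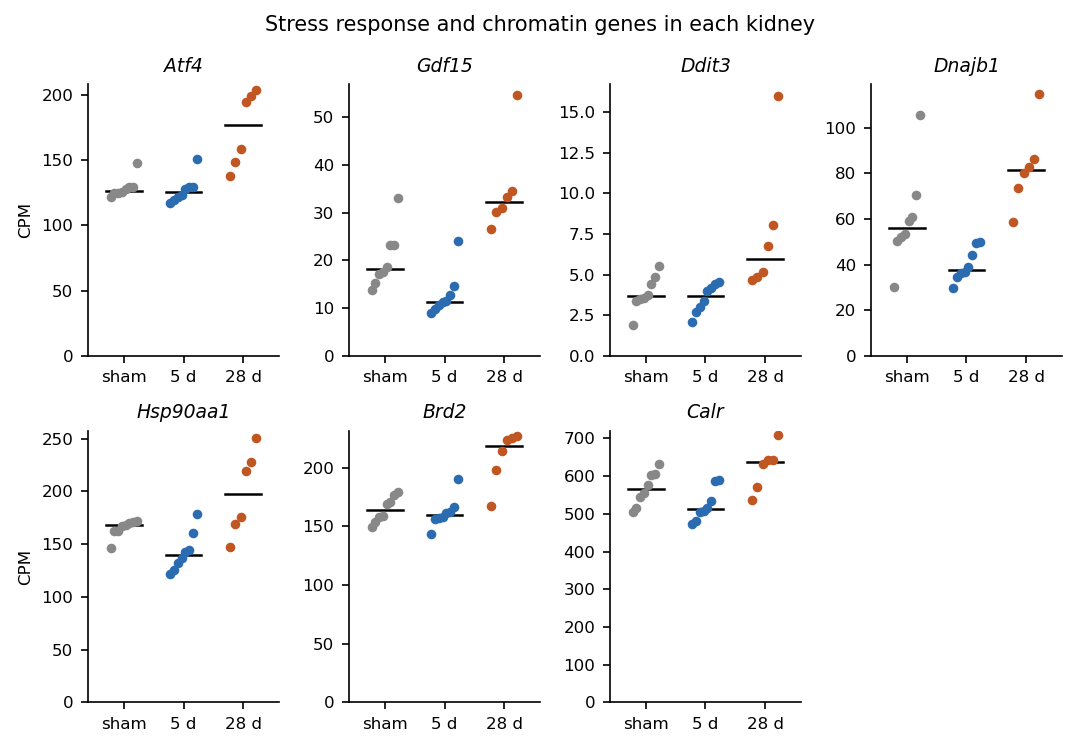
Levels in CPM (linear scale from 0) of 7 stress-response and chromatin genes in each sham kidney (grey), kidney at 5d (blue) and kidney at 28d post-MI (orange), with group medians as black lines. Gdf15, Ddit3 and Dnajb1 separate the kidneys at 5d and 28d, while Atf4, Hsp90aa1, Brd2 and Calr overlap.

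Some called genes belong to the nucleus and the cytoskeleton. H4c9, a histone H4 gene, had 8.04, 11.7 and 18.2 CPM at 5d and 20.3, 45.3 and 54.5 CPM at 28d (log2 fold change 1.77 ± 0.23, adjusted p = 0.00155). Its groups were apart. Of 9 tested histone genes it alone was called, H2bc6 had 1.76 ± 0.43 (adjusted p = 0.0746, called by DESeq2), and the list median was 0.48. Most histone mRNAs lack a poly(A) tail, and histone genes resemble each other in sequence, so that the counts cover only part of their transcripts. Brd2, a reader of acetylated histones, rose by 0.37 ± 0.06, the nuclear long noncoding RNA Malat1 by 0.38 ± 0.07 and Actb (beta-actin) by 0.27 ± 0.05.

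Immunoglobulin genes were higher at 28d. Jchain, the chain that joins IgA and IgM polymers, had 1.76, 3.56 and 9.46 CPM at 5d and 15.04, 16.8 and 23.4 CPM at 28d, and its log2 fold change was 2.02 ± 0.34 (adjusted p = 0.00636). Igkc, the kappa light chain constant region, rose by 1.78 ± 0.31 (adjusted p = 0.00886), from 7.05, 18.9 and 54.3 CPM to 64.1, 79.3 and 100 CPM. Neither gene had overlapping groups. The IgA heavy chain Igha had 1.77 ± 0.43 with 5 of the 6 kidneys at 28d above all at 5d (adjusted p = 0.0780), the lambda chain Iglc1 had 1.63, and the IgM chain Ighm had 0.07 ± 0.22, none called by edgeR, whereas DESeq2 and limma voom called Igha. General B and T lymphocyte markers were too low to be tested, with 11 genes summing to between 3.94 and 10.5 CPM at 5d and between 5.99 and 16.0 CPM at 28d. In whole-kidney RNA, more cells of a type and more RNA per cell cannot be told apart.

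In the opposite direction, all 5 haemoglobin genes fell. This list was chosen by the study on these same samples, and its direction is therefore not independent evidence. Hba-a1 had 1286, 2089 and 4758 CPM at 5d and 439, 615 and 1228 CPM at 28d, with a log2 fold change of −1.78 ± 0.28 (adjusted p = 0.00375). Hbb-bs fell by 1.75 ± 0.29 on the log2 scale, from 1928, 3504 and 7504 CPM to 749, 1039 and 2153 CPM. In Hba-a1 and its near-identical copy Hba-a2 every kidney at 28d was below every kidney at 5d, while in Hbb-bs, Hbb-bt and the pseudogene Hba-ps3 28d replicate 2 reached into the range at 5d. Reads of these copies cannot be assigned to one of them with certainty. The 5 genes together made 4950, 8761 and 19047 CPM at 5d and 1794, 2525 and 5112 CPM at 28d. Sham kidneys had 2196 to 4100 CPM.

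The other red cell genes gave a less even picture. Tent5c, a poly(A) polymerase that stabilizes mRNAs in erythroid and plasma cells, fell by 1.34 ± 0.24, from 12.6, 18.0 and 37.3 CPM to 5.23, 8.23 and 10.7 CPM without overlap. Bpgm, the enzyme that makes the oxygen-affinity regulator of red cells, had −0.35, whereas the anion exchanger Slc4a1 had −0.17 and the haem enzyme Fech −0.01, none called. Slc4a1 and Fech are also expressed in kidney cells. The list of 11 tested members had a median of −0.33. In the kidney 5d replicate 6, which had the highest haemoglobin sum, the summed level of the other red cell genes was also the highest at 739 CPM, against 505 to 565 CPM at 28d. With the red cell genes as a covariate haemoglobin log2 fold changes were between −0.65 and −0.49 and none was called. When sham kidneys were left out of the fit, their adjusted p-values lay between 0.0557 and 0.104.

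**Figure D5:**
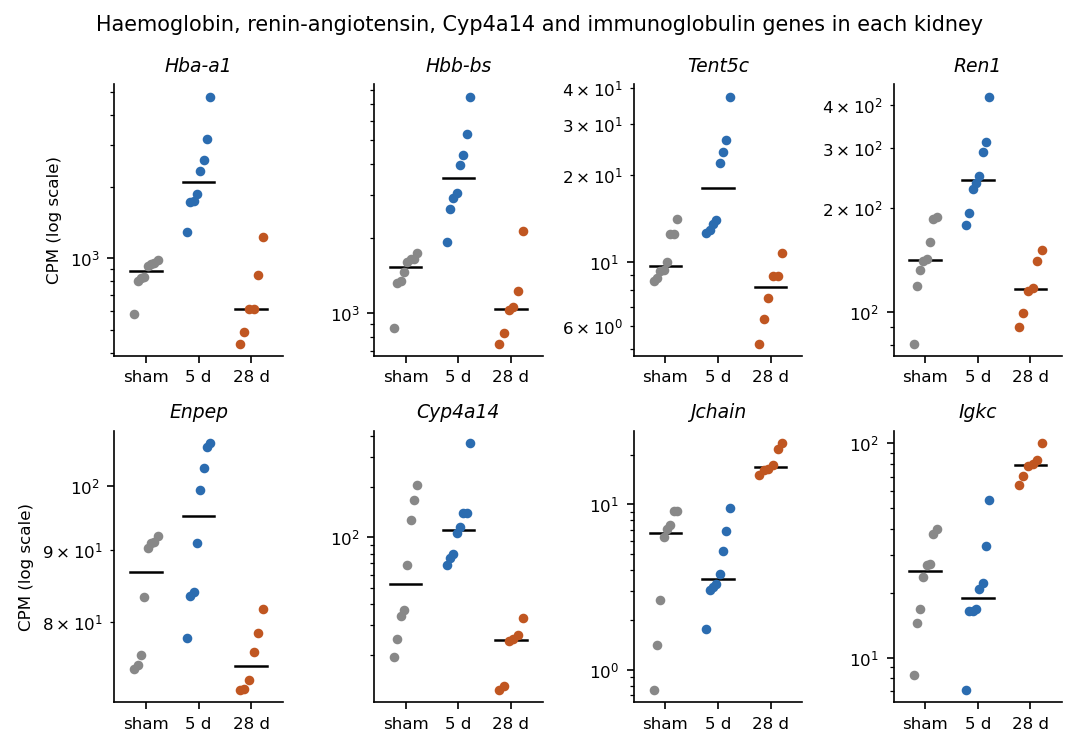
Levels in CPM (log scale) of Hba-a1, Hbb-bs, Tent5c, Ren1, Enpep, Cyp4a14, Jchain and Igkc in each sham kidney (grey), kidney at 5d (blue) and kidney at 28d post-MI (orange), with group medians as black lines. Hba-a1, Tent5c, Ren1 and Cyp4a14 lie lower at 28d in every kidney, Hbb-bs and Enpep overlap, and Jchain and Igkc lie higher. Cyp4a14 was not called by edgeR over all 22 kidneys.

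Renin fell as well. Ren1 (GRCm38 chromosome 1, 133350510 to 133360325, plus strand) had 178, 242 and 423 CPM at 5d and 90.3, 116 and 151 CPM at 28d, with a log2 fold change of −1.15 ± 0.20 (adjusted p = 0.00886). No kidney at 28d reached the level of any kidney at 5d. Sham kidneys spread from 80.8 to 188 CPM around a median of 142. Of 9 tested genes of the renin-angiotensin system 2 were called, both lower, and the list median was −0.14. Enpep, which converts angiotensin II to angiotensin III, fell by 0.32 ± 0.08, and 4 of the 6 kidneys at 28d were below every kidney at 5d. Its call was lost when any 1 of 9 of the 14 kidneys was left out. Other members had log2 fold changes of 0.25 ± 0.07 for Ace, which makes angiotensin II, −0.38 ± 0.17 for its precursor Agt and −0.05 ± 0.10 for the receptor Agtr1a, none called.

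In fatty acid metabolism the list of PPAR alpha and fasting genes had 1 called member of 37, Acads (short-chain acyl-CoA dehydrogenase), which rose by 0.24 ± 0.05 against the list median of −0.11. Cyp4a14, a fatty acid omega-hydroxylase and PPAR alpha target, had the most negative log2 fold change of the list, −2.60 ± 0.60, and missed the threshold in edgeR (adjusted p = 0.0655). DESeq2, limma voom and the edgeR fit on only the kidneys at 5d and 28d called it. Its levels were 68.8, 111 and 363 CPM at 5d and 12.3, 24.4 and 33.2 CPM at 28d. The groups did not overlap, and the highest kidney at 5d was replicate 2, but sham kidneys also ranged widely, from 19.3 to 204 CPM. Acaa2, a mitochondrial thiolase, had −0.26 and was not called.

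Levels of adipocyte genes varied between libraries. The brown adipocyte list had no called member of 6 by edgeR, DESeq2 or limma voom, 2 lower at unadjusted p under 0.05, a median of −1.41 and summed levels of 58.5, 189 and 356 CPM at 5d and 71.5, 95.1 and 159 CPM at 28d. Ucp1, the uncoupling protein that defines brown fat, ranged from 0.433 to 119 CPM at 5d and from 0.402 to 22.4 CPM at 28d. White adipocyte genes had no called member of 18 by these tools, 1 lower at unadjusted p under 0.05, a median of −0.30 and sums of 1622 to 4307 CPM at 5d and 2314 to 3250 CPM at 28d. Among all tested genes 4.01% were lower at that p. With fat and adrenal levels as covariates 63 genes were called, 48 of them among the 53. Without the kidneys high in adrenal genes, 5d replicate 5 and sham replicates 2 and 6, 42 were called, 39 of them among the 53.

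Most genes that the study names for kidney RNA outside the haemoglobins were not called. Sema3g, a secreted semaphorin of podocytes, had 26.9, 42.1 and 53.03 CPM at 5d and 25.6, 33.6 and 45.5 CPM at 28d (log2 fold change −0.26 ± 0.12, adjusted p = 0.534). Its groups overlapped. The log2 fold changes of Cck, Slitrk6, Itgav and Psap were 0.37 ± 0.13, 0.48 ± 0.25, −0.18 ± 0.07 and 0.09 ± 0.06, none called. Of 13 genes so named 7 were called, the 5 haemoglobin genes, Ccn1 and Gdf15, against 0.415% of all tested genes. Like the haemoglobin genes, Ccn1 and Gdf15 were named by the study from these same samples, so their calls are not independent evidence. The lipases Lipe and Pnpla2, which the study also names and which stand here in the white adipocyte list, had −0.42 and −0.44 and were not called.

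Lists of nephron segments and matrix held no called gene. Of 21 podocyte genes, 10 of the thick ascending limb, 22 of the distal tubule and principal cells, 11 of intercalated cells and 29 collagens and matrix genes none was called by edgeR, DESeq2 or limma voom, with 3 higher and 2 lower at unadjusted p under 0.05, and list medians lay between −0.05 and 0.05. Proximal tubule genes had 8 of 18 members higher and 1 lower at unadjusted p under 0.05, with a median of 0.12. The shares over all tested genes at that p were 5.03% higher and 4.01% lower. Spp1 (osteopontin), listed for tubular injury and fibroblast activation, had −0.28 ± 0.07 and no call by edgeR (adjusted p = 0.0713), while DESeq2 called it. It was lower in all 6 kidneys at 28d than in any at 5d, but by a narrow margin. The highest kidney at 28d had 581.5 CPM and the lowest at 5d 582.2 CPM.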

How the data were processed

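Kidney RNA of 24 mice was sequenced by MACE, of which 22 kidneys (8 sham, 8 at 5d and 6 at 28d post-MI) were used. The authors trimmed the reads, mapped them and counted them with HTSeq, and deposited whole-number counts per gene without normalization. The deposited columns named tpm are CPM that the authors scaled to each kidney's total, within 5e-06, and served only as a check. Of 48 value columns, 4 were not used because kidneys of both times share a column name. The methods give mm10 as genome build and the submitters' processing notes mm39 with Bowtie2, so coordinates are those of GENCODE M21 (GRCm38) and may not be the build of the counts. Annotation and strand setting are not given in the sources used here. Symbols came from the paper's supplementary tables for 4885 of 56941 identifiers and otherwise from GENCODE M21, which covers 51948 of the 56941. Any identifier in neither source kept its ID as symbol.

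edgeR 4.0.16 (R 4.3.3) was used on the 3 groups without covariates, with filterByExpr (minimum 10 counts), TMM scaling and a robust quasi-likelihood fit. The contrast 28d minus 5d was tested two-sided with Benjamini-Hochberg adjustment over 12780 genes. Standard errors were taken as the estimate over the root of its F statistic. The scripts were tested on simulated data. DESeq2 1.42.0 and limma 3.58.1 served as alternatives, and Python 3.11.15 with scipy 1.17.1 and matplotlib 3.10.9 for tables and figures. Depth limits precision, since 1 read equals 0.296 to 0.425 CPM, and standard errors include the spread between kidneys. Named genes are the 15 called genes with the lowest p in each direction, up to 4 called members of each list, or up to 3 with the lowest p, those the paper names for kidney RNA, and markers of fat, adrenal cortex and blood. The remaining called genes and further list members were named after their values had been seen. Some genes that this rule selects are not reported here. The comparison, the gene lists and this rule were chosen with earlier results of these data known. Over 43 pairs of kidneys within a time, chi-squared per degree of freedom was 1.69 to 7.21, above the sampling noise in every pair. The labels do not state that kidneys are from separate litters or operation days, and p-values measure the spread between these samples.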

Additional observations from a re-analysis of the deposited data

Results flagged for a closer look

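In 9 of 118 groups of values (59 genes at 2 times) 1 kidney stood apart from the others of its group by Dixon's criterion, which chance meets in about 1 in 20 groups. Gdf15 was 24.1 CPM in 5d replicate 1, where the next highest kidney had 14.7, and 54.6 CPM in 28d replicate 4, where the next had 34.6. Ddit3 was 16.0 CPM in 28d replicate 7 against 8.05 in the next kidney, and its log2 fold change without that kidney was 0.71. Hbb-bs and Hbb-bt were 2153 and 622 CPM in 28d replicate 2, against 1224 and 309 CPM in the next kidney. Atf4 was 151 CPM and Trim63, a muscle ubiquitin ligase, 31.8 CPM in 5d replicate 9. Sertad1 was 28.6 CPM in 5d replicate 2, and Mvd, an enzyme of cholesterol synthesis, 78.9 CPM in 28d replicate 3. In each of the 9 cases the high kidney was the highest of its group, and no cause was tested.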

How the results depend on the processing

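All 53 calls kept their direction under the 26 alternatives in which the gene was fitted, and 33 stayed past the threshold with each of the 14 kidneys left out in turn. Leaving out a kidney gave between 41 and 89 calls, with 34 to 71 higher and 7 to 18 lower. The 89 came without 5d replicate 1, the kidney at 5d with the highest immediate early sum, and without 5d replicate 9 there were 16 lower genes. DESeq2 called 91 genes (73 higher, 18 lower) and the fit without a filter on low counts 160 (117 higher, 43 lower). With only the kidneys at 5d and 28d, 25 were called (23 higher, 2 lower), 21 of them among the 53. This fit had fewer samples and took its spread from these kidneys alone. With red cell genes as a covariate 1 gene was called (1 higher, 0 lower), and 757 genes had an unadjusted p under 0.05 against 1156. This covariate moved with the time after infarction, and both cannot be told apart. Median-of-ratios scaling, limma voom, a filter of 20 counts in 6 kidneys, a fit without robust estimation, covariates for fat and adrenal genes or for log2 total, and omission of kidneys with over 50 CPM of adrenal genes, which was chosen after seeing the data, gave between 42 and 68 calls. Over 59 genes (the 53 called and 6 that the study names), 1255 of the refitted values stayed on their side of the threshold and 275 lost the call.

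The replicate numbers do not pair the kidneys, since the deviations of kidneys with the same number correlated at −0.127 to 0.0899 over 5 pairs and 2 of the 5 correlated best with their own number. With replicate number as a block 80 genes were called (66 higher, 14 lower), 39 of them among the 53. At this depth genes with few reads, such as Atf3, Fosb, Cxcl1 and Ddit3, carry wide counting error. Total counts without the 10 most abundant genes differed by −0.11 in log2 (exact permutation test, p = 0.283).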

Other observations

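Further groups of genes held few or no called members. All 4 inhibitors of DNA binding, Id1 to Id4, had positive log2 fold changes (Id1 0.89 ± 0.26, Id2 0.51 ± 0.15, Id3 0.76 ± 0.18, Id4 0.61 ± 0.15), and Id3 had 47.9, 62.4 and 105 CPM at 5d and 104, 118 and 149 CPM at 28d. Id3 and Id4 came closest to the threshold, both with an adjusted p of 0.0688 in edgeR, and both were called by DESeq2 and by limma voom, which also called Id1. Of the BMP ligands and receptors in the same list, Bmp7 had −0.01 and Bmpr1a −0.07. Of 11 genes that respond to androgens in the mouse proximal tubule, 6 were higher at unadjusted p under 0.05 and none lower, with a median of 0.37 and no call by edgeR, DESeq2 or limma voom. At that p, 5.03% of all tested genes were higher and 4.01% lower. Cyp4a12a had 1.30 ± 0.38, with 3.96, 9.02 and 17.3 CPM at 5d and 10.03, 22.4 and 39.3 CPM at 28d, and Kap, the kidney androgen-regulated protein, had 0.28 ± 0.11. Cyp4a12b, a close copy of Cyp4a12a with which reads may be confused, had −0.32.

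Interferon-stimulated genes had 1 called member of 24, Ly6e, which rose by 0.46 ± 0.09 and separated the groups, and 9 members were higher at unadjusted p under 0.05, among them Gbp2 (0.67 ± 0.20) and Irf7 (0.54 ± 0.17). Over all tested genes 5.03% were higher and 4.01% lower at that p. Cytosolic ribosomal proteins had none called of 82 by any of these tools and 19 lower at unadjusted p under 0.05, with 77 negative signs, a median of −0.06 and Rps26 at −0.19 as the member of lowest p. The circadian clock list had none called of 19 by these tools and 1 at unadjusted p under 0.05. Its member of lowest p, Arntl, had a log2 fold change of 1.57 at unadjusted p = 0.0245 in edgeR's quasi-likelihood test. Arntl was 8.59 and 11.8 CPM in 28d replicates 2 and 3. In the other kidneys at 28d it lay between 0.402 and 2.99 CPM, against 0.602 to 2.54 CPM at 5d.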
